A study of Gallus gallus with 6 samples.

Results

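Kinesins and cytoplasmic dynein are the motors that walk along microtubules, and this family was followed in chick neural tube cells in which Tcf-dependent transcription had been repressed. Motor genes were taken by symbol from the annotation of the array: kinesins (KIF followed by a digit or C), kinesin light chains (KLC), and the dynein chains DYNC, DYNLT, DYNLL and DYNLRB. The rule gave 49 genes of 13009 with a probe set of their own, and all 49 kept the same symbol in RefSeq. Of these, 34 were kinesins, 2 were kinesin light chains, 7 were heavy, intermediate or light intermediate dynein chains and 5 were dynein light chains. The remaining gene, KIF1BP, encodes a kinesin-binding protein and entered by its symbol only.

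Most kinesins carry cargo toward the plus end of the microtubule, which in an axon points away from the cell body, and cytoplasmic dynein carries cargo back. Another set of kinesins works on the mitotic spindle, where they push the poles apart, align chromosomes and organise the midzone that guides cytokinesis. In the neural tube, spindle motors serve the dividing progenitors and transport motors serve the axons of their neuronal progeny. Neither class is read here as a marker of a cell type.

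White Leghorn embryos of wild-type genotype were electroporated at embryonic day 3, and neural tubes at the level of the spinal cord were taken 24 h later, at 4 days of incubation. Both groups received Cre recombinase driven by a TUBB3 enhancer, which removed a stop cassette from a second plasmid. In Tubb3::CAG:control cells that plasmid then made membrane GFP alone, and in Tubb3::CAG:TcfEnR cells it made GFP together with TcfEnR, the engrailed repressor fused to the HMG box of Tcf3. Each of the 3 control and 3 TcfEnR replicates was a pool of 20 to 25 neural tubes, sorted for GFP, so that single embryos were not measured. Values are log2 RMA signals of Affymetrix chicken arrays, on which a difference of 1 is a doubling. Only the change of a gene between groups is compared here, because signals of different probe sets are not on a common scale.

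Arrays of a group correlated with each other at 0.978 to 0.991 across probe sets and with those of the other group at 0.889 to 0.917. The contrast was wide: at an adjusted p of 0.05 (limma, Benjamini-Hochberg over 38439 probe sets), 32.6% of all genes had lower and 25% had higher signals in cells with TcfEnR, and 3.46% fell by at least 4-fold. The number of arrays limits the precision. The labels describe the sorted cells as postmitotic. In control cells the neuronal markers STMN2 and DCX stood at 11.49 ± 0.97 and 11.59 ± 0.39 (SD, n = 3). The cell cycle genes TOP2A and CDK1 stood at 11.79 ± 0.43 and 10.96 ± 0.27 (SD, n = 3). Control means of the listed neuronal markers ran from 5.35 (GAP43) to 12.85 (NEFM), and of the cell cycle genes from 7.65 (MKI67) to 12.35 (PCNA). Such levels of different probe sets do not give the shares of cell types. In this bulk RNA, fewer cells of a type and less RNA of a gene per cell cannot be told apart.

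Of the 49 motor genes, 26 were lower, 4 were higher and 19 were not called in Tubb3::CAG:TcfEnR cells. This makes 53.1% lower and 8.16% higher, beside the 32.6% and 25% of all genes. The median change of the 49 was −0.42 on the log2 scale, beside −0.09 for all genes. The 6 motor genes that fell by at least 4-fold, beside 3.46% of all genes, were all mitotic kinesins. With quantile normalization repeated, which moved the median of all genes by more than 0.1 to 0.03, 24 motor genes were lower and 7 were higher. In that setting 3269 of all 13009 genes were lower and 3574 were higher, and KIF4B (−1.93) and KIF23 (−1.99) fell by less than 4-fold. The shift differed between motor genes and was larger than that of the median for some bright ones. KIF5B went from −0.34 to −0.02 and DYNC1H1 from −0.99 to −0.70, whereas the dimmer DYNC2H1 stayed at −0.10. As means of their probe sets, KIF15 (−1.82) and KIF23 (−1.77) fell by less than 4-fold.

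**Figure D1:**
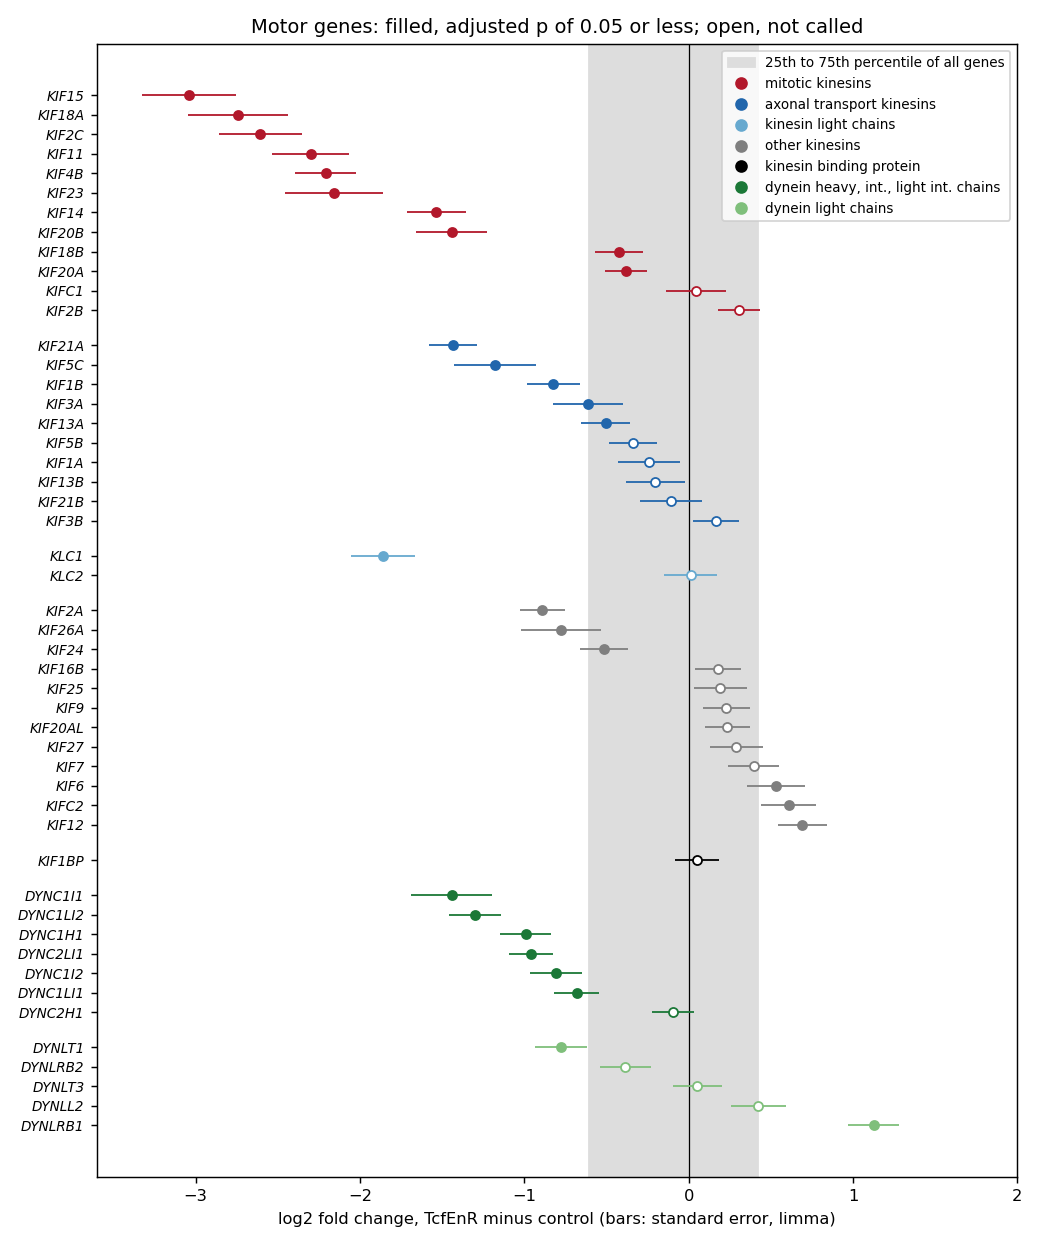
Log2 fold change of the 49 motor genes (x axis, TcfEnR minus control, bars are standard errors from limma) grouped by class, with filled points at an adjusted p of 0.05 or less and the 25th to 75th percentile of all genes (−0.61 to 0.42) shaded. Mitotic kinesins reach down to −3.04 and axonal transport kinesins to −1.43, whereas DYNLRB1 rose by 1.13.

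The kinesins of cell division fell the furthest among the classes of motor genes. The class held 14 genes by name, of which 12 were measured, KIF22 and KIF4A having no probe set under those symbols, although RefSeq gives KIF4A as a synonym of the chicken gene KIF4B. Of the 12, 10 were lower, none was higher and 6 fell by at least 4-fold, beside 3.46% of all genes. The median change was −1.85. The share of 83.3% lower stood beside 32.6% among all genes, and 8 of the 12 were lower with quantile normalization repeated or with the replicate number as a block. Of all 13009 genes, 3269 and 4012 were lower in these settings, respectively.

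Of 3 motors that build the bipolar spindle, KIF15 and KIF11 fell and KIFC1 was not called. KIF15, a kinesin-12 that helps to keep spindle poles apart, had log2 signals of 9.42, 9.64 and 10.23 in the control arrays and of 7.23, 6.17 and 6.77 in the TcfEnR arrays. The groups were far apart, and the log2 fold change was −3.04 (SE 0.29, adjusted p = 5.09e-05, limma). KIF11, the kinesin-5 Eg5 that slides antiparallel microtubules apart, went from 9.42, 9.28 and 10.21 to 7.40, 7.46 and 7.15. The groups did not overlap, and the log2 fold change was −2.30 (SE 0.23, adjusted p = 7.81e-05). KIFC1, a kinesin-14 that moves to the minus end and focuses spindle poles, was read by 1 probe set. Its signals were 8.13, 7.65 and 8.28 in control and 8.08, 7.92 and 8.20 in TcfEnR arrays, with overlapping groups and a 95% interval of the log2 fold change from −0.37 to 0.46 (adjusted p = 0.849).

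Of 4 kinesins that act on microtubule ends, KIF2C and KIF18A fell by over 4-fold. KIF2C, also known as MCAK, which corrects wrong attachments at centromeres, was at 8.45, 8.58 and 9.31 in control and at 6.59, 5.94 and 5.99 in TcfEnR arrays. KIF18A, a kinesin-8 that damps chromosome oscillations at the metaphase plate, was at 6.71, 6.58 and 7.43 and at 4.70, 3.58 and 4.22, respectively. Neither gene had overlapping groups, and the log2 fold changes were −2.61 (SE 0.25, adjusted p = 6.24e-05) for KIF2C and −2.74 (SE 0.30, adjusted p = 0.000119) for KIF18A. The TcfEnR signals of KIF18A approached 3.37, the 5th percentile of all probe sets, near the bottom of the range. Its relative KIF18B, which trims astral microtubules, moved by only −0.42 (SE 0.14, adjusted p = 0.0346) from 7.97 ± 0.13 to 7.54 ± 0.17 (SD, n = 3), and it lost its call when any array other than control replicate 1 was left out, with an adjusted p of 0.0543 to 0.118. Nor was KIF18B called with quantile normalization repeated (−0.30, adjusted p = 0.128) or with the replicate number as a block (adjusted p = 0.0694). KIF2B, a close relative of KIF2C, had dim signals of 4.74 to 4.92 in control and 5.05 to 5.18 in TcfEnR arrays (adjusted p = 0.0696).

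Motors of the chromosome arms, the midzone and the cleavage furrow fell as well. KIF4B, the chicken chromokinesin that sets the length of midzone microtubules, had signals of 10.84, 11.32 and 11.34 in control and of 9.22, 8.93 and 8.72 in TcfEnR arrays. KIF23, the kinesin-6 subunit of centralspindlin, had signals of 8.70, 9.88 and 9.65 and of 7.58, 6.89 and 7.29, respectively. Both were separated between groups, with log2 fold changes of −2.21 (SE 0.19, adjusted p = 3.01e-05) and −2.16 (SE 0.30, adjusted p = 0.000412). The other probe set of KIF23 fell less (−1.39, SE 0.21, adjusted p = 0.000626, limma). KIF14, which recruits citron kinase to the midbody, changed by −1.54 (SE 0.18), and KIF20B, a kinesin-6 of late cytokinesis, by −1.44 (SE 0.22). The probe sets of KIF20A, the kinesin-6 that brings the chromosomal passenger complex to the midzone, gave unlike sizes. The one with the highest mean, which stood for the gene, was at 10.55, 10.42 and 10.47 in control and at 10.18, 10.13 and 9.99 in TcfEnR arrays (change −0.38, SE 0.13, adjusted p = 0.0306). Its other probe set was at 8.14, 8.67 and 8.77 and at 6.01, 5.61 and 5.73 (change −2.75, SE 0.19, adjusted p = 1.27e-05). Both were lower, but leaving out any 1 of the 6 arrays took the call of the first away, with an adjusted p of 0.0510 to 0.0974. With quantile normalization repeated, the first changed by only −0.07 (adjusted p = 0.698), and with the replicate number as a block its adjusted p was 0.0562.

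**Figure D2:**
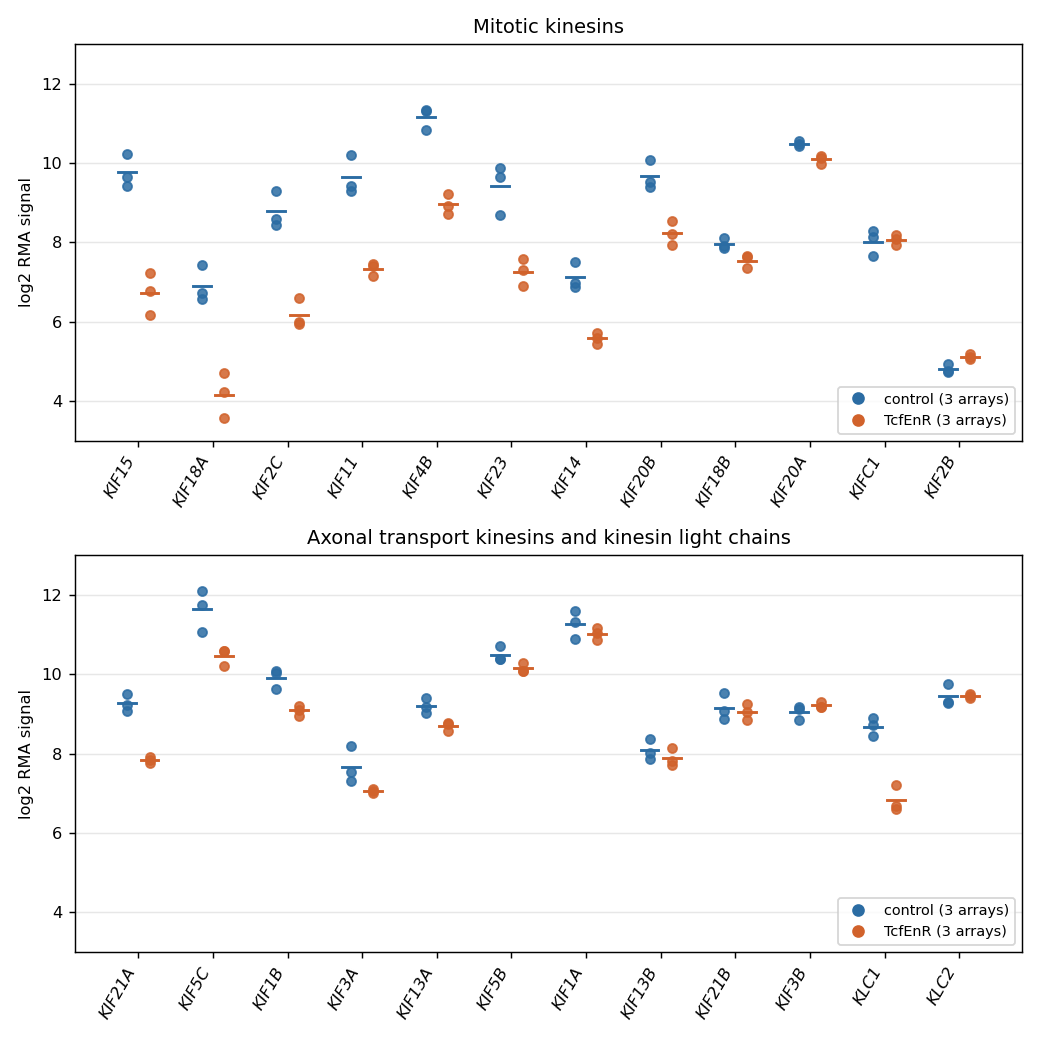
Log2 RMA signal (y axis) of each mitotic kinesin, axonal transport kinesin and kinesin light chain in each array, with control in blue, TcfEnR in orange and bars at the means of 3 arrays. For KIF15, KIF2C and KIF11 the groups are far apart, whereas for KIFC1, KIF1A, KIF21B and KLC2 they overlap.

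Partners of these motors on the spindle moved with them. All 15 measured genes of a list of 17 were lower, beside 32.6% of all genes. CENPE, the kinesin-7 of kinetochores, which the rule did not take because of its symbol, went from 10.22 ± 0.47 to 7.25 ± 0.05 (SD, n = 3), a log2 fold change of −2.97. NUSAP1, CDK1 and BUB1, a spindle protein, the mitotic kinase and a checkpoint kinase, changed by −2.64, −2.57 and −2.47. RACGAP1, which forms centralspindlin with KIF23, had a log2 fold change of −2.39, TPX2, which regulates KIF11 on the spindle, one of −1.81, and PRC1, the midzone crosslinker that binds KIF4 kinesins, one of −1.08. The median of the list was −2.31. Cell cycle markers, a list sharing CDK1, BUB1 and PLK1 with these partners, were lower in 10 of 10 measured, with a median of −2.25. Neural progenitor markers were lower in 8 of 10, with a median of −2.05. These counts too stand beside 32.6% lower among all genes. Of markers of cells outside the neural tube, 5 of 8 blood and macrophage markers were higher, beside 25% of all genes. These 8 averaged 6.94 to 7.21 in control and 7.20 to 8.41 in TcfEnR arrays. They include the globins HBZ and HBA1, which were not called and varied between TcfEnR arrays (HBA1 at 10.60, 12.03 and 6.76). For mesenchyme 2 of 8 markers were lower and for endothelium 1 of 6 was higher, not above the 32.6% and 25% of all genes. Their median log2 fold changes were −0.87 and 0.32. The mesenchyme markers varied between control arrays, with averages of 7.30, 8.31 and 6.61, and averaged 6.91, 6.36 and 6.58 in TcfEnR arrays. The part of a changed share of dividing cells or of other cells in the fall of the mitotic kinesins was not tested.

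Motors of axonal transport had a smaller median change, with called and uncalled genes side by side. Of 13 genes in the class, 10 were measured, KIF1C, KIF3C and KIF5A having no probe set of their own. Of the 10, 5 were lower and none was higher. None fell by at least 4-fold, beside 3.46% of all genes. With so low a share, an absence among 10 genes does not set the class apart from all genes. The median log2 fold change was −0.42, or −0.33 after subtracting the median of all genes, and it was −0.14 and −0.16 with quantile normalization repeated. In that setting 4 of the 10 were lower and KIF3B was called higher, beside 3269 lower and 3574 higher of all 13009 genes. Without renewed normalization, the share of 50% lower stood beside 32.6% among all genes. Without TcfEnR replicate 2, only 3 of the 10 were called lower, beside 3559 of all 13009 genes.

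The conventional kinesins, which carry vesicles and mitochondria out along the axon, split by gene. KIF5C, the heavy chain that is enriched in neurons, had signals of 12.11, 11.75 and 11.08 in control and of 10.60, 10.22 and 10.59 in TcfEnR arrays. The ubiquitous heavy chain KIF5B had signals of 10.71, 10.39 and 10.38 and of 10.29, 10.07 and 10.09, respectively. KIF5C fell by 1.18 (SE 0.25, adjusted p = 0.00375) on the log2 scale, whereas the change of KIF5B was −0.34 (SE 0.15, adjusted p = 0.0764). The light chains link these heavy chains to cargo. KLC1, the light chain known from neurons, was at 8.89, 8.45 and 8.71 in control and at 6.59, 6.67 and 7.20 in TcfEnR arrays, a fall of 3.63-fold (log2 fold change −1.86, SE 0.19, adjusted p = 8.84e-05). KLC2 was at 9.75, 9.29 and 9.27 and at 9.39, 9.50 and 9.46, with overlapping groups and an interval from −0.35 to 0.37 (adjusted p = 0.957).

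Kinesin-3 motors, which move synaptic vesicle precursors, dense core vesicles and endosomes, changed little or moderately. KIF1A, known for its role in neurons, was at 11.58, 11.32 and 10.89 in control and at 11.03, 11.17 and 10.87 in TcfEnR arrays. The groups overlapped and the change was −0.24 (SE 0.19, adjusted p = 0.302), although without control replicate 3 it passed the threshold (−0.43, adjusted p = 0.0480). KIF1B, whose isoforms carry mitochondria and synaptic vesicle precursors, was at 10.09, 9.62 and 10.03 and at 9.11, 8.95 and 9.21, a change of −0.82 (SE 0.16, adjusted p = 0.00265). KIF13A, a motor of recycling endosomes, was at 9.01, 9.17 and 9.41 and at 8.77, 8.57 and 8.73. It changed by −0.51 (SE 0.15, adjusted p = 0.0178) and its relative KIF13B by −0.20 (SE 0.18, adjusted p = 0.366). KIF13A was not called with quantile normalization repeated (adjusted p = 0.227) or without TcfEnR replicate 2 (adjusted p = 0.0689).

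KIF21A, a kinesin-4 that restrains microtubule growth and is found in axons and growth cones, showed the deepest fall among the transport kinesins. Its signals were 9.50, 9.22 and 9.08 in control and 7.76, 7.91 and 7.84 in TcfEnR arrays, a change of −1.43 (SE 0.15, adjusted p = 8.04e-05). Its relative KIF21B was at 9.52, 8.88 and 9.07 and at 8.85, 9.04 and 9.25, with overlapping groups and a change of −0.11 (SE 0.19, adjusted p = 0.658). KIF3A and KIF3B form the heterodimer of kinesin-2, which serves cilia as well as axons. KIF3A had signals of 8.18, 7.53 and 7.31 in control and of 7.07, 7.11 and 7.01 in TcfEnR arrays, with control replicate 1 well above the others. Its change was −0.61 (SE 0.21, adjusted p = 0.0358), and leaving out any 1 array except control replicate 3 took its call away. The change was −0.36 without control replicate 1 (adjusted p = 0.0716) and −0.29 as the mean of its probe sets (adjusted p = 0.0869). KIF3B was at 9.18, 8.84 and 9.13 and at 9.18, 9.30 and 9.17 (0.17, adjusted p = 0.346), and it was called higher with quantile normalization repeated (0.45, adjusted p = 0.0258). KIFAP3, the cargo adaptor of this dimer, changed by −1.02 (SE 0.15).

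The mitotic and the transport class differed by −1.42 in their median log2 fold changes, and by −1.72 to −1.27 when each array was left out in turn. The control arrays were ordered differently in the 2 classes. Averaged over the 12 mitotic kinesins, the log2 signal was 8.43, 8.54 and 8.96 in control replicates 1, 2 and 3 and 7.33, 6.96 and 7.02 in the TcfEnR replicates. Averaged over the 10 transport kinesins, it was 9.83, 9.46 and 9.44 in control and 9.04, 9.01 and 9.09 in TcfEnR replicates. Control replicate 3 was the highest control array for 10 of the 12 mitotic kinesins, and control replicate 1 was the highest for 9 of the 10 transport kinesins. Among all genes, these arrays were the highest for 40.5% and 28.5%. Control replicate 3 was the lowest control array for 0 mitotic and 5 transport kinesins, beside 30.5% of all genes. Markers differed between the same arrays: 10 neuronal markers averaged 11.23, 10.78 and 10.13 in control replicates 1, 2 and 3, and 10 cell cycle markers averaged 9.86, 10.28 and 10.62. Their part in the order of the motor genes was not tested. In TcfEnR arrays the neuronal markers averaged 8.29 to 8.46. Of the 10, 8 were lower than in control, beside 32.6% of all genes, with a median log2 fold change of −2.53.

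Kinesins with other roles showed no common direction. Of 12, 3 were lower, 3 were higher and 6 were not called, and the median log2 fold change was 0.23. The shares of 25% lower and 25% higher were near the 32.6% and 25% of all genes. KIF2A, a depolymerase that prunes axon branches and also acts at spindle poles, went from 9.04, 9.14 and 8.85 to 8.03, 8.12 and 8.21, a change of −0.89 (SE 0.14, adjusted p = 0.000678). KIF26A, an atypical kinesin without motor activity, was at 7.56, 7.47 and 6.58 in control and at 6.45, 6.45 and 6.38 in TcfEnR arrays (−0.78, SE 0.24, adjusted p = 0.0238). Control replicate 3 lay close to the TcfEnR arrays for this gene, and its call was lost without any 1 of the other arrays. The second-brightest probe set of KIF26A was not called (−0.42, adjusted p = 0.0531, limma), whereas its dimmest was lower (−1.05, adjusted p = 0.00417). KIF24, a depolymerase of centrioles, went from 6.89, 6.88 and 7.12 to 6.55, 6.24 and 6.55 (−0.52, SE 0.15, adjusted p = 0.0165). The call of KIF24 was lost without TcfEnR replicate 2 (adjusted p = 0.0672). Its other probe set, of similar signal, had overlapping groups and was not called (−0.31, adjusted p = 0.158, limma).

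The 3 that rose were KIF12, KIFC2 and KIF6. KIF12 was at 6.65, 6.84 and 6.82 in control and at 7.45, 7.69 and 7.24 in TcfEnR arrays, a change of 0.69 (SE 0.15, adjusted p = 0.00459). KIFC2, a kinesin-14 described in neurons of mammals, was at 8.03, 7.73 and 8.01 and at 8.26, 8.60 and 8.74, a change of 0.61 (SE 0.17, adjusted p = 0.0131), which was not called without TcfEnR replicate 3 (adjusted p = 0.0523). KIF6 rose by 0.53 (SE 0.18, adjusted p = 0.0302), but its groups overlapped, at 3.18, 3.06 and 3.59 in control and 3.92, 3.92 and 3.59 in TcfEnR arrays, near the bottom of the range, and its call was lost without any 1 array other than control replicate 3 or TcfEnR replicate 3 (adjusted p = 0.0721 to 0.103). The members that were not called included KIF7, a kinesin of the cilium tip in hedgehog signaling, at 7.36 ± 0.26 and 7.76 ± 0.03 (SD, n = 3, adjusted p = 0.0584), and KIF16B, an endosomal motor, at 8.15 ± 0.15 and 8.33 ± 0.14 (SD, n = 3, adjusted p = 0.315). KIF7 was called higher with quantile normalization repeated (0.50, adjusted p = 0.0230) and without control replicate 2 (0.50, adjusted p = 0.0407), and KIF16B as the mean of its probe sets (0.35, adjusted p = 0.0418). KIF9, KIF25, KIF27 and KIF20AL changed by 0.19 to 0.29, and KIF1BP, which binds kinesins, changed by 0.05 (SE 0.13, adjusted p = 0.778), or by 0.54 through its second probe set (adjusted p = 0.0343). For KIF9, 2 of 4 probe sets were called higher (0.37, adjusted p = 0.0393, and 0.69, adjusted p = 0.00337), as was the gene with quantile normalization repeated (0.39, adjusted p = 0.0410) and as the mean of its probe sets (0.42, adjusted p = 0.0170).

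All 5 chains particular to cytoplasmic dynein 1, the motor of retrograde axonal transport, were lower in Tubb3::CAG:TcfEnR cells, beside 32.6% of all genes. With quantile normalization repeated all 5 were still lower, beside 3269 of all 13009 genes, but by less. Their changes then ran from −1.30 (DYNC1I1) to −0.39 (DYNC1LI1, adjusted p = 0.0421, limma). The heavy chain gene DYNC1H1, which holds the motor domain, was at 11.60, 11.31 and 11.31 in control and at 10.20, 10.43 and 10.61 in TcfEnR arrays, a change of −0.99 (SE 0.16, adjusted p = 0.000805). The dimmest probe set of this gene went the other way, from 3.17, 3.02 and 3.11 to 4.83, 5.73 and 4.41 (adjusted p = 0.00069), and the mean of its 3 probe sets changed by 0.01 (adjusted p = 0.943). Among the motor genes, DYNC1H1 was the only one with called probe sets in opposite directions.

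Intermediate chains bind dynactin and cargo adaptors, and both were lower. DYNC1I1, the intermediate chain known from neurons, had signals of 9.15, 8.39 and 8.58 in control and of 7.05, 7.0 and 7.73 in TcfEnR arrays. The widely expressed DYNC1I2 had signals of 9.54, 9.19 and 9.24 and of 8.32, 8.53 and 8.70, respectively. Neither had overlapping groups, and the changes were −1.44 (SE 0.25, adjusted p = 0.00132) and −0.81 (SE 0.16, adjusted p = 0.00252). The second probe set of DYNC1I1 was near the bottom of the range and was not called (adjusted p = 0.383). Of the light intermediate chains, which bind the adaptors that activate the motor, DYNC1LI2 went from 8.73, 8.63 and 8.35 to 7.27, 7.08 and 7.46, and DYNC1LI1 from 10.05, 10.01 and 10.22 to 9.27, 9.39 and 9.57. The changes were −1.30 (SE 0.16, adjusted p = 0.000208) and −0.68 (SE 0.14, adjusted p = 0.00312).

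Dynein 2, the retrograde motor of cilia, was read by 2 genes. Its heavy chain gene DYNC2H1 was at 7.10, 6.85 and 6.93 in control and at 6.9, 6.82 and 6.87 in TcfEnR arrays, with an interval of the change from −0.39 to 0.20 (adjusted p = 0.555). Its light intermediate chain gene DYNC2LI1 went from 8.46, 8.30 and 8.51 to 7.54, 7.52 and 7.32, a change of −0.96 (SE 0.13, adjusted p = 0.00042). The difference between these 2 genes was not tested.

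The light chains, which stabilise the dynein complex and are shared with other protein assemblies, included the only motor gene to rise by over 2-fold. DYNLRB1, the roadblock-type light chain, was at 6.46, 6.26 and 6.41 in control and at 7.76, 7.48 and 7.27 in TcfEnR arrays, a change of 1.13 (SE 0.16, adjusted p = 0.00041), read by 1 probe set. DYNLT1, a Tctex-type light chain, moved the other way, from 12.03, 12.02 and 11.57 to 11.12, 11.15 and 11.02, a change of −0.78 (SE 0.16, adjusted p = 0.00311). The other 3 were not called: DYNLL2, an LC8-type light chain, at 0.42 (adjusted p = 0.0589), DYNLRB2 at −0.38 (adjusted p = 0.0622) and DYNLT3 at 0.05 (adjusted p = 0.786). DYNLL2 was called higher through its second probe set (0.58, adjusted p = 0.0494), with quantile normalization repeated (0.66, adjusted p = 0.0102), without control replicate 2 (0.53, adjusted p = 0.0433), and as the mean of its probe sets (0.50, adjusted p = 0.0414). DYNLRB2 was called lower with quantile normalization repeated (−0.46, adjusted p = 0.0337), without control replicate 3 (−0.53, adjusted p = 0.0117) and where genes were averaged over probe sets (adjusted p = 0.0453).

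**Figure D3:**
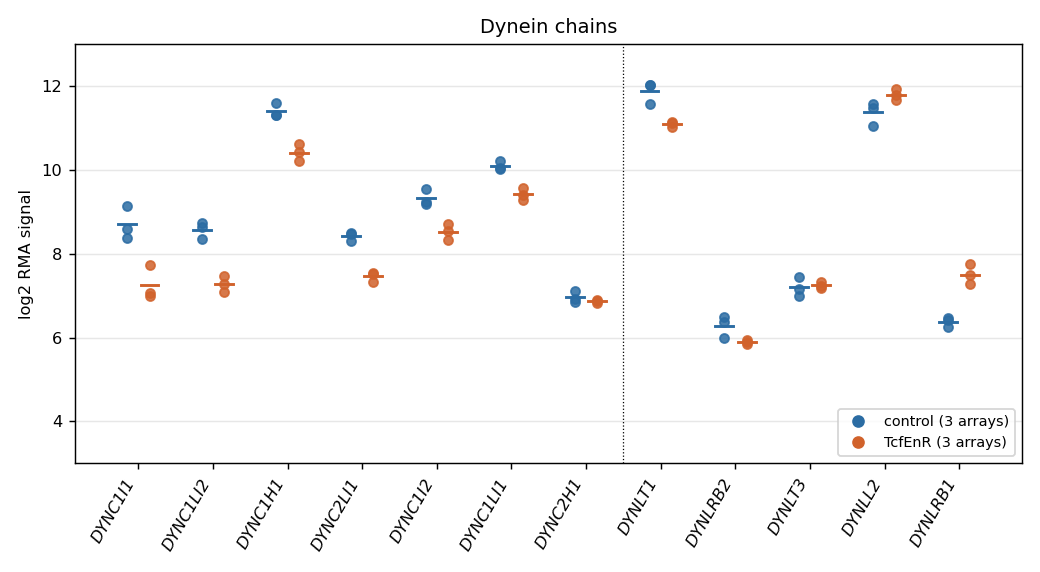
Log2 RMA signal (y axis) of the dynein chains in each array, with control in blue, TcfEnR in orange, bars at the means of 3 arrays and light chains to the right of the dotted line. The 5 DYNC1 chains lie lower in TcfEnR arrays, DYNC2H1 overlaps, and DYNLRB1 lies higher.

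Cofactors of dynein included genes that fell and genes that rose. Their calls and those of the kinesin adaptors were not examined under other ways of processing. Of 10 measured dynactin genes, 5 were lower and none was higher, beside 32.6% lower and 25% higher among all genes, and their median log2 fold change was −0.35. DCTN6, a pointed-end subunit, changed by −0.82 and ACTR1A, the actin-related protein of the filament, by −0.56, followed by CAPZB (−0.50) and DCTN5 (−0.43). Of 13 measured regulators and adaptors of dynein, 7 were lower and 2 were higher, with a median of −0.59. NDE1, a LIS1 partner of dividing progenitors, changed by −2.17, SPDL1, the kinetochore adaptor, by −1.48, HOOK3 by −1.27 and BICD1 by −1.10, whereas NUMA1, which anchors dynein at the mitotic cell cortex, rose by 0.61 and RILP by 0.51. For BICD1, control replicate 1 stood well above the others, at 8.76 beside 7.58 and 7.46 (SE 0.30, adjusted p = 0.0136, limma). PAFAH1B1, the gene of LIS1, and NDEL1 were not called, with changes of −0.19 (adjusted p = 0.240) and 0.30 (adjusted p = 0.133). Of 20 measured kinesin adaptors, 9 were lower and 1 was higher, with a median of −0.42, and this count too is to be read against 32.6% and 25% of all genes. Among them GRIP1, a KIF5 cargo adaptor, changed by −1.16, FEZ2 by −1.10, PPFIA2, a liprin, by −0.95 and SPAG9, a JIP family scaffold, by −0.88, and the gene that rose was PPFIA4 (0.65). PPFIA2 varied between control arrays, at 8.86, 7.94 and 7.33, and was at 7.0, 7.0 and 7.27 in TcfEnR arrays (SE 0.32, adjusted p = 0.0342, limma).

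Relatives within a family were set against each other by taking the difference of their log2 signals in each array and comparing it between groups. The 14 pairs were formed by relatedness, with results of these data known. Since 3 arrays against 3 cannot give a p below 0.1 (exact permutation test, two-sided), the lowest p adjusted over the pairs was 0.117, and the sizes are given with 95% intervals on 4 degrees of freedom, not adjusted for the number of pairs. KLC1 and KLC2 differed by −1.87 (interval −2.46 to −1.28). KIF21A and KIF21B differed by −1.32 (−1.75 to −0.90), and KIF18A and KIF18B by −2.32 (−3.41 to −1.23). DYNLRB1 and DYNLRB2 differed by 1.51 (0.82 to 2.20), and DYNC1H1 and DYNC2H1 by −0.90 (−1.28 to −0.52). The exact p was 0.1 for each of these 5 pairs.

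Smaller differences separated KIF5B from KIF5C (0.84, interval 0.15 to 1.53), KIF3A from KIF3B (−0.78, −1.45 to −0.11), DYNLT1 from DYNLT3 (−0.83, −1.39 to −0.26), DYNC1I1 from DYNC1I2 (−0.64, −1.20 to −0.07) and DYNC1LI1 from DYNC1LI2 (0.62, 0.07 to 1.17). In 11 of the 14 pairs the interval excluded 0. The other 3 were KIF1A and KIF1B (0.58, −0.25 to 1.41), KIF13A and KIF13B (−0.30, −1.07 to 0.47) and DYNC1LI1 and DYNC2LI1 (0.28, −0.17 to 0.72), whose intervals still allow sizeable differences. The share of intervals excluding 0 among pairs of other genes was not computed. Since 32.6% of all genes were lower and 25% were higher, the 11 of 14 cannot be read as particular to motor genes. All pairs were compared only through the probe set of highest mean of each gene. The difference between KIF20A and KIF20B (1.06, 0.35 to 1.76) rested on the probe set taken for KIF20A. That between DYNC1H1 and DYNC2H1 also rested on the probe sets taken, since as means of their probe sets these genes changed by 0.01 and −0.003. DYNC1I1 and DYNC1I2 changed by −0.85 and −0.63 as means of their probe sets.

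**Figure D4:**
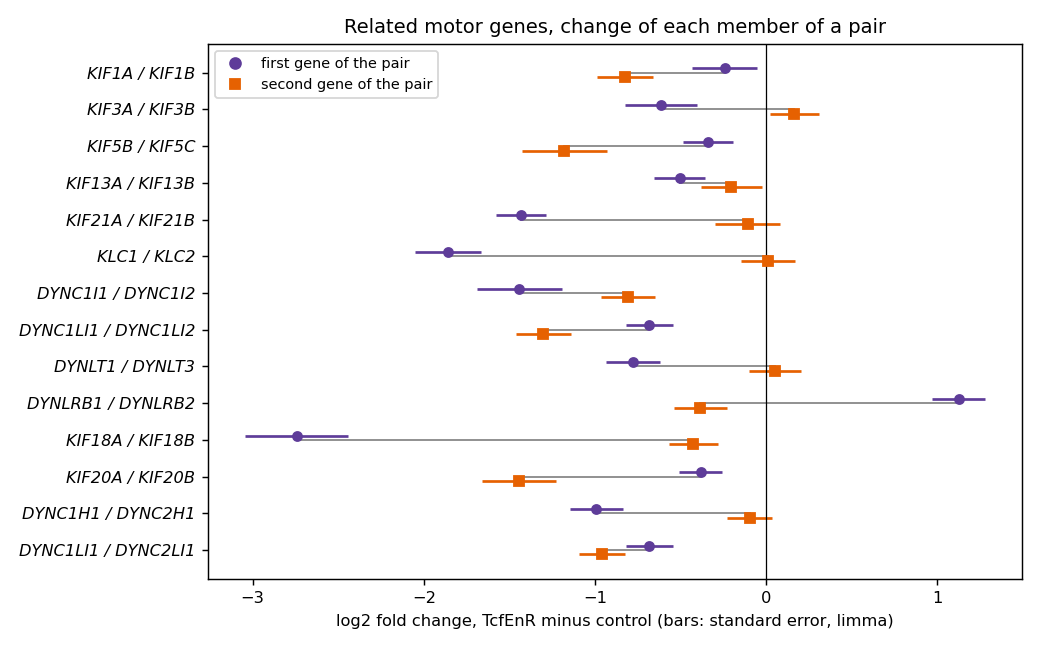
Log2 fold change of both genes of 14 related pairs (x axis, TcfEnR minus control), circles for the first and squares for the second gene, with standard errors from limma. KLC1, KIF21A and KIF18A lie well to the left of KLC2, KIF21B and KIF18B, and the DYNLRB pair lies on opposite sides of 0.

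The calls were also read from every probe set of the motor genes. The 49 genes had 125 probe sets, and 40 genes had more than 1. Of the 125, 58 were lower and 11 were higher, beside 26.2% lower and 26.5% higher among all probe sets. Mitotic kinesins had 31 probe sets, of which 26 were lower and none was higher, and transport kinesins had 32, of which 12 were lower and none was higher. For KIF15, 3 of 5 probe sets had log2 fold changes of −2.75 to −3.06, and the other 2 were dim, with signals of 3.27 to 4.15, and were not called. For KIF1A, 1 of 6 probe sets was called lower (−0.68, adjusted p = 0.0326), and the other 5 changed by −0.44 to −0.23.

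**Figure D5:**
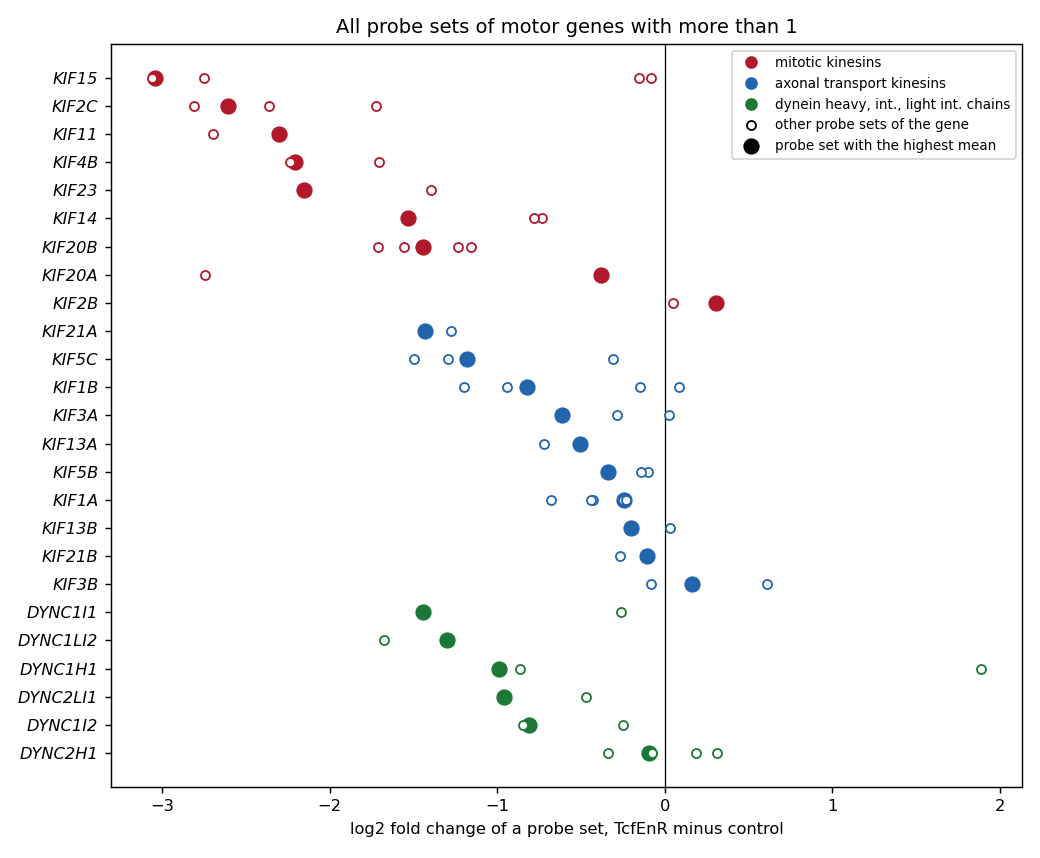
Log2 fold change (x axis, TcfEnR minus control) of every probe set of mitotic kinesins, axonal transport kinesins and heavy, intermediate and light intermediate dynein chains with more than 1. Dynein light chains are not shown, and the large filled point is the probe set with the highest mean. KIF20A spans −2.75 to −0.38, and the DYNC1H1 probe sets lie on both sides of 0.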

How the data were processed

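The authors hybridised amplified RNA of GFP-sorted cells to Affymetrix chicken arrays and deposited log2 values after RMA (background correction, quantile normalization and probe set summary). The version of RMA was not given in the sources used here. Of 38535 probe sets, 96 controls were left out and 38439 were compared between 3 TcfEnR and 3 control arrays with limma 3.58.1 in R 4.3.3 (lmFit and eBayes, no block), with Benjamini-Hochberg adjustment over all of them and a call at 0.05. Figures were drawn with matplotlib 3.10.9. Probe sets with 1 symbol gave 13009 genes, each read by its probe set of highest mean signal across the 6 arrays, and 177 with several symbols were not named. RMA values carry no count of molecules, and 45 of the 49 motor genes had a mean above 5.47, the 25th percentile of all probe sets.

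The labels call the arrays biological replicates. Which pools shared an electroporation session is not given, so that p-values measure the spread between these pools. The motor genes, classes, pairs and marker lists were chosen with earlier results of these data known. Values in every array were given for up to 5 called members of each class with the largest changes, up to 3 called members that moved against the median of their class, and the member with the highest control mean, and up to 4 called genes of each partner list were named. Other genes named, relatives and direct partners of these, were chosen after their values had been seen. The fit was tested on simulated data with independent noise and few changed probe sets, a setting that does not cover a contrast as wide as this one. No promoter or protein sequences were used here.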

Additional observations from a re-analysis of the deposited data

How the results depend on the processing

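Of the 30 motor genes called, 20 kept their direction and call under all alternatives tried other than the thresholds on fold change, and 10 did not. Some alternatives could change little: array medians already lay at 6.929 to 6.933 before centring, and 9 of the 49 genes had only 1 probe set. The share of all called genes that kept their call was not computed. Marker genes, partner genes and relatives under other symbols were not examined gene by gene under these alternatives. Quantile normalization repeated gave 24 motor genes lower and 7 higher, and 3269 genes lower and 3574 higher among all genes. Requiring a log2 fold change of at least 1 in size left 4325 probe sets lower and 3023 higher. It left 13 motor genes lower and 1 higher, and 2 transport kinesins lower, beside 1745 lower and 1073 higher of all 13009 genes. Requiring at least 2 left 1136 and 566 probe sets, 6 and 0 motor genes, 6 mitotic and 0 transport kinesins. Of all genes, 450 were lower and 202 were higher in that setting. With KIF24 and KIF2A added to the mitotic kinesins, the difference between the class medians was −1.07. Leaving out each array in turn gave 20 to 26 motor genes lower and 3 to 5 higher, 8 to 9 mitotic and 3 to 6 transport kinesins lower, a difference of −1.72 to −1.27, and 8371 to 10083 probe sets lower and 8008 to 10311 higher. The cause was not tested.

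The sign turned for DYNC1H1 with the mean of its probe sets (0.012), for KIF1A (0.045) and KIF21B (0.17) with quantile normalization repeated, and for KIF13B with the second-highest probe set (0.031), an alternative chosen after seeing the data. Leaving out 1 array in turn also turned the sign of KIF21B (−0.25 to 0.075, positive without control replicate 1), DYNLT3 (−0.052 to 0.18, negative without control replicate 2), KIF1BP (−0.029 to 0.10, negative without TcfEnR replicate 2), KLC2 (−0.070 to 0.17, negative without control replicate 2 or 3 or TcfEnR replicate 2) and KIFC1 (−0.14 to 0.18, negative without control replicate 2 or TcfEnR replicate 3). Of these genes, DYNC1H1 alone was called in the comparison as reported.

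Same-numbered replicates did not deviate together (correlations of −0.04, 0.02 and −0.06), so the numbers were not taken to pair the samples. With the replicate block, 24 motor genes were lower and 3 higher, with 8 mitotic and 5 transport kinesins lower. Among all genes, 4012 were lower and 3018 higher in that setting. Array signal limits the dim genes, 4 of the 49 lying at or below the 25th percentile.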

Other observations

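Some relatives of the motor genes carry other symbols, and they were picked after their values had been seen. DYL1, which RefSeq lists as DYNLL1, an LC8-type dynein light chain, was at 12.09, 12.13 and 11.92 in control and at 11.58, 11.55 and 11.42 in TcfEnR arrays. The groups did not overlap, and the log2 fold change was −0.53 (SE 0.13, adjusted p = 0.00826, limma). TCTEX1D2, a Tctex-type light chain of dynein 2, was at 9.37, 9.58 and 9.58 and at 9.76, 9.98 and 9.73, respectively, and was not called (0.31, SE 0.14, adjusted p = 0.0825).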
